A study of Homo sapiens with 9 samples.

Results

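Tropomyosins, calponins, caldesmon, transgelin and smooth muscle actin were described here by their transcripts in 9 RNA sequencing libraries. The 10 genes (TPM1, TPM2, TPM3, TPM4, CNN1, CNN2, CNN3, CALD1, TAGLN and ACTA2) were chosen from a list of actin-binding contractile genes, and all 10 were among the 26636 genes that the 9 deposited tables share. The choice was made with their values known, from the near absence of CNN3 in some libraries and the higher TPM4 after knockdown. Their levels and changes are therefore given as descriptions, with no test.

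All 9 libraries were labelled BT549, an established human triple-negative breast cancer line that is known for a mesenchymal-like shape. Each group held 3 libraries, transfected with the control siRNA siNC, with siWFDC21P-1 or with siWFDC21P-2 (5 µl of a 10 µM stock) and harvested at 48 h. Both latter siRNAs are directed at WFDC21P, a transcribed pseudogene. Inside their tables the siWFDC21P-2 libraries are named si2, si3 and si4 for replicates 1 to 3. The titles give all of them as siWFDC21P-2, and it is not stated if the names mark different siRNAs, in which case they would not be replicates. Nothing in the labels says that the libraries came from separate cultures, so differences between them may be technical.

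The libraries did not behave as replicates of 1 cell population. Clustering on 12964 tested genes, without the genes described here and their related lists, gave 3 sets. The first control, siNC replicate 1, fell in set 1 with replicates 1 and 2 of siWFDC21P-1. Set 2 joined siNC replicate 2 to siWFDC21P-1 replicate 3, and all siWFDC21P-2 libraries were in set 3 with siNC replicate 3. Libraries of the same set had a Pearson's r across genes of 0.927 to 0.986, and libraries of different sets one of 0.657 to 0.744. The epithelial surface gene EPCAM was at 209 to 228 FPKM (fragments per kilobase of gene, scaled to the reads of the library) in set 2 and at most 0.0731 in the other sets. The intermediate filament gene VIM, abundant in mesenchymal cells, was at 162 to 310 FPKM in set 3, 38.5 to 41.0 in set 1 and 0.517 to 0.699 in set 2. The keratin KRT8 was at 93.4 to 232 FPKM in set 1, where EPCAM was near 0. Set 2 overlapped with it in KRT8 (135 to 293 FPKM), and set 3 little (3.99 to 5.44 FPKM). The EPCAM and VIM levels of set 2 go against what BT549 is known for. Set 1 departed from it in part. There the cadherin CDH2, a mesenchymal marker, was at most 0.00698 FPKM, against 14.7 to 18.1 in set 3, and TWIST1 was at 0. Of 7 mesenchymal markers, 4 passed 1 FPKM in every library of set 1, and all 7 did in set 3. The sets are called VIM-intermediate (set 1), EPCAM-high (set 2) and VIM-high (set 3) from here on. Each knockdown library was compared with the siNC library of its own set, which leaves 1 control a set, and siWFDC21P-2 and the VIM-high set cannot be told apart. Nor, in bulk RNA, can fewer cells of a type be told apart from less of a transcript in each cell.

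The targeted gene WFDC21P had 3.08 FPKM in siNC replicate 1 against 0.0629 and 0.767 in siWFDC21P-1 replicates 1 and 2. It had 6.87 FPKM in siNC replicate 3 against 4.13, 3.32 and 2.12 in siWFDC21P-2 replicates 1 to 3. In the EPCAM-high set it had 0.129 FPKM (4 reads) in siNC replicate 2 and 0.227 FPKM (7 reads) in the library labelled siWFDC21P-1 replicate 3, so that label could not be checked by its target. Library totals were 16.3 to 17.4 M reads in the VIM-high set and 28.1 to 29.7 M in the others. The deposited tables of the VIM-high set also listed 29104 genes, against 34377 in the others. Their library names were written in another style, without hyphens. The part of these differences in the contrast of the VIM-high set with the others was not tested and cannot be told apart from the cells.

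Tropomyosins are coiled-coil dimers that lie along actin filaments and set which myosins and binding proteins reach them. TPM1, TPM2, TPM3 and TPM4 each give several forms through alternative promoters and exons, of which TPM1 and TPM2 are known for the long muscle and stress fibre forms and TPM3 and TPM4 for short cytoskeletal forms. Calponins and caldesmon bind actin and restrain myosin, transgelin crosslinks filaments, and ACTA2 is the smooth muscle actin that myofibroblasts also make. The deposited values are 1 per gene, so the alternative forms of a gene were not separated.

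In hg38 coordinates of GENCODE release 29, TPM1 (ENSG00000140416) lies on chromosome 15 from 63042632 to 63071915, TPM2 (ENSG00000198467) on chromosome 9 from 35681992 to 35690121, TPM3 (ENSG00000143549) on chromosome 1 from 154155304 to 154194648 and TPM4 (ENSG00000167460) on chromosome 19 from 16067021 to 16103005. The calponin genes CNN1 (ENSG00000130176) and CNN2 (ENSG00000064666) lie on chromosome 19, from 11538717 to 11550323 and from 1026581 to 1039068, and CNN3 (ENSG00000117519) lies on chromosome 1 from 94896949 to 94927278. CALD1 (ENSG00000122786) lies on chromosome 7 from 134744252 to 134970728, TAGLN (ENSG00000149591) on chromosome 11 from 117199321 to 117204782 and ACTA2 (ENSG00000107796) on chromosome 10 from 88935074 to 88991339. Exons on the opposite strand cover part of the exon length of 5 of the 10: TPM1 (TPM1-AS, 16.1%, and AC079328.2, 5.37%), TPM4 (AC008894.3, 9.60%), CNN2 (AC011558.1, 9.27%), TAGLN (PCSK7, 11.4%) and ACTA2 (ACTA2-AS1, 17.3%, and FAS, 12.8%). The labels do not say if strand was kept, so reads of these pairs may be mixed. CNN2 has 11 annotated pseudogenes, TPM3 has 8, and TPM4 and CNN3 have 1 each, whose reads may be split with their parent.

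The tropomyosin makeup differed between the sets in TPM2 and TPM4 far more than in TPM3. TPM2 had 51.6, 63.4 and 80.1 FPKM in the VIM-intermediate libraries (siNC replicate 1, then siWFDC21P-1 replicates 1 and 2). It had 2.39 and 2.93 FPKM in the EPCAM-high libraries (siNC replicate 2, siWFDC21P-1 replicate 3) and 114, 165, 215 and 252 FPKM in the VIM-high libraries (siNC replicate 3, siWFDC21P-2 replicates 1 to 3). The 3 ranges of TPM2 did not overlap, and the order was VIM-high, VIM-intermediate, EPCAM-high. TPM3 had 53.3, 47.0 and 48.4 FPKM in the VIM-intermediate set, 64.6 and 54.9 in the EPCAM-high set and 56.5, 60.7, 70.3 and 77.3 in the VIM-high set, in the same library order. The 9 TPM3 values all lay between 47.0 and 77.3 FPKM, and the EPCAM-high and VIM-high ranges overlapped. TPM1 was the lowest tropomyosin in the VIM-intermediate and VIM-high sets, at 2.85, 2.67 and 2.60 FPKM and at 5.27, 3.82, 9.52 and 15.1 FPKM. In the EPCAM-high set TPM1 had 7.78 and 7.24 FPKM, above TPM2, and lay within the VIM-high range.

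TPM4 had 12.2, 36.3 and 47.0 FPKM in the VIM-intermediate set, 5.38 and 30.6 in the EPCAM-high set and 75.9, 174, 131 and 156 in the VIM-high set. In each set the siNC library was the lowest. All 4 VIM-high values lay above the other 5, and the VIM-intermediate and EPCAM-high ranges overlapped. Among the 3 siNC libraries the order was the same as for TPM2, with 75.9, 12.2 and 5.38 FPKM.

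As shares of the summed FPKM of the 4 tropomyosins, TPM3 made up 80.6% in siNC replicate 2 and 57.4% in the library labelled siWFDC21P-1 replicate 3, and it led in the EPCAM-high set. In the VIM-intermediate set TPM2 (42.4 to 45.0%) and TPM3 (27.2 to 44.4%) shared the lead. In the VIM-high set TPM2 held 40.9 to 50.5% and TPM4 30.1 to 43.1%. TPM1 made up at most 9.71%, in the EPCAM-high set, where it held 11.5 to 14.1% of the reads and 18.5 to 21.1% per transcript length. FPKM here divides, for most genes, by the union of all annotated exons, which favours genes with few rare exons. For TPM1 and TPM2 the length was solved from the values, at 12492 and 4047 bases. Their unions in GENCODE release 29 are 12876 and 3248 bases. Counted as reads, TPM4 led in all 4 VIM-high libraries (35.98 to 51.3%) and TPM3 in all 3 VIM-intermediate ones (36.5 to 57.2%). Scaled by the median length of the coding transcripts, TPM2 led in the VIM-high set (39.8 to 46.8%). TPM3 led in the EPCAM-high set on all 3 scales.

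**Figure D1:**
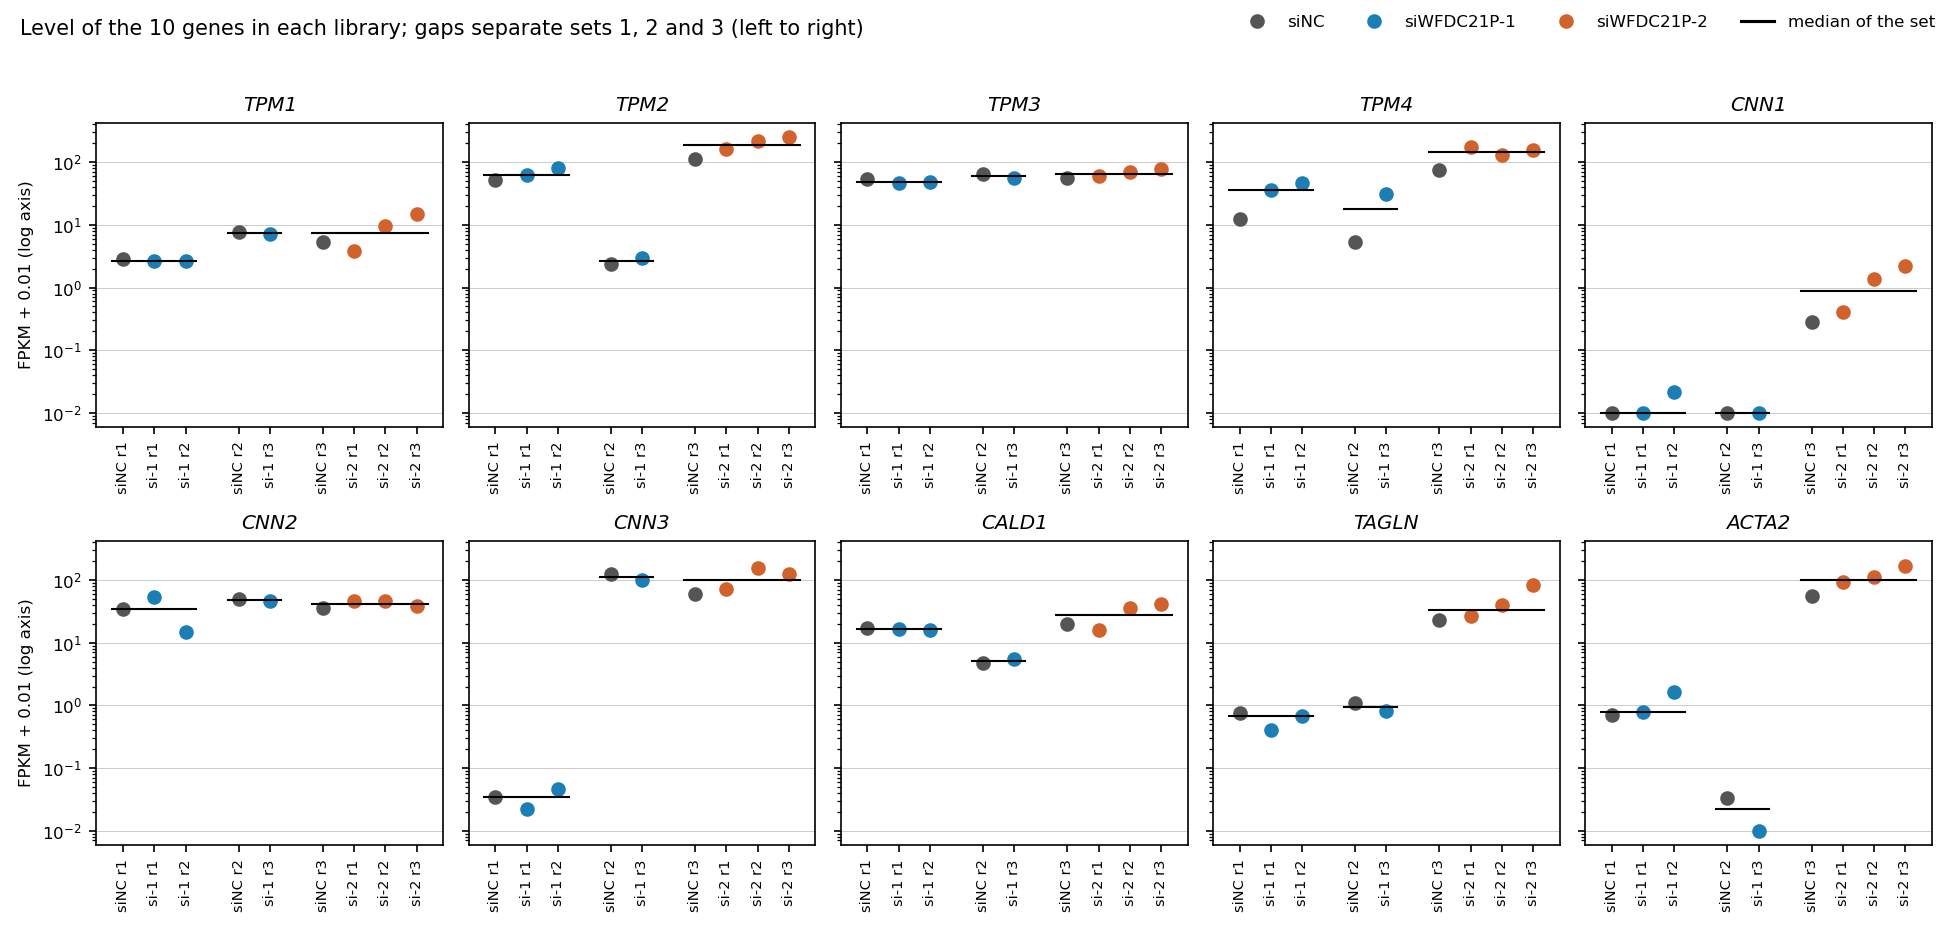
FPKM + 0.01 of the 10 genes (log axis) in the 9 libraries, with a panel for each gene, a gap between sets and a line at the median of each set; si-1 and si-2 stand for the siWFDC21P siRNAs. CNN3 lies at 0.0122 to 0.0356 FPKM in set 1 and above 60 in the other sets, TPM2 is lowest in set 2, and TAGLN and ACTA2 are high only in set 3. CNN1 is low throughout, at 0.276 to 2.22 FPKM in set 3 and at most 0.0117 in the others.

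Calponin makeup differed between the sets through CNN3, while CNN2 was present in all 9 libraries. CNN3, the acidic calponin of non-muscle cells, had 0.0241, 0.0122 and 0.0356 FPKM in the VIM-intermediate set, which were 2, 1 and 3 reads in libraries of 28.9 to 29.7 M reads. In the EPCAM-high set it had 125 and 102 FPKM, and in the VIM-high set 60.8, 71.5, 154 and 126 FPKM. The VIM-intermediate libraries thus held at most 3 reads of CNN3, the number that a count of 0 still allows, while the other 6 held 2811 to 10015. The EPCAM-high and VIM-high ranges overlapped. CNN2, the broadly expressed calponin, had 34.1, 54.1 and 14.8 FPKM in the VIM-intermediate set, 49.0 and 46.1 in the EPCAM-high set and 35.4, 46.4, 46.6 and 38.1 in the VIM-high set. All 3 ranges of CNN2 overlapped, and the lowest and the highest of the 9 values were the siWFDC21P-1 libraries of the VIM-intermediate set.

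CNN1, the smooth muscle calponin, was listed at 0 in both EPCAM-high libraries and in VIM-intermediate siNC replicate 1 and siWFDC21P-1 replicate 1, and siWFDC21P-1 replicate 2 held 1 read. A count of 0 allows up to 0.0355 to 0.0370 FPKM in these libraries (3 reads). In the VIM-high set CNN1 had 13, 20, 65 and 110 reads, or 0.276, 0.398, 1.35 and 2.22 FPKM. It was detected in 4 of 4 VIM-high libraries and stayed the lowest calponin there.

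Of the summed calponin FPKM, CNN2 made up at least 99.7% in the VIM-intermediate set, 28.2 to 31.1% in the EPCAM-high set and 22.9 to 39.2% in the VIM-high set. CNN3 made up 68.9 to 71.8% and 60.5 to 76.3% of the latter sets, and CNN1 at most 1.33%. CNN3 led in both of these sets, and CNN2 in the VIM-intermediate set, also by reads and per transcript length. The summed level of CNN2 and CNN3 was thus lower in the VIM-intermediate set. Its CNN2 range (14.8 to 54.1 FPKM) overlapped those of the other sets and held the highest single value.

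**Figure D2:**
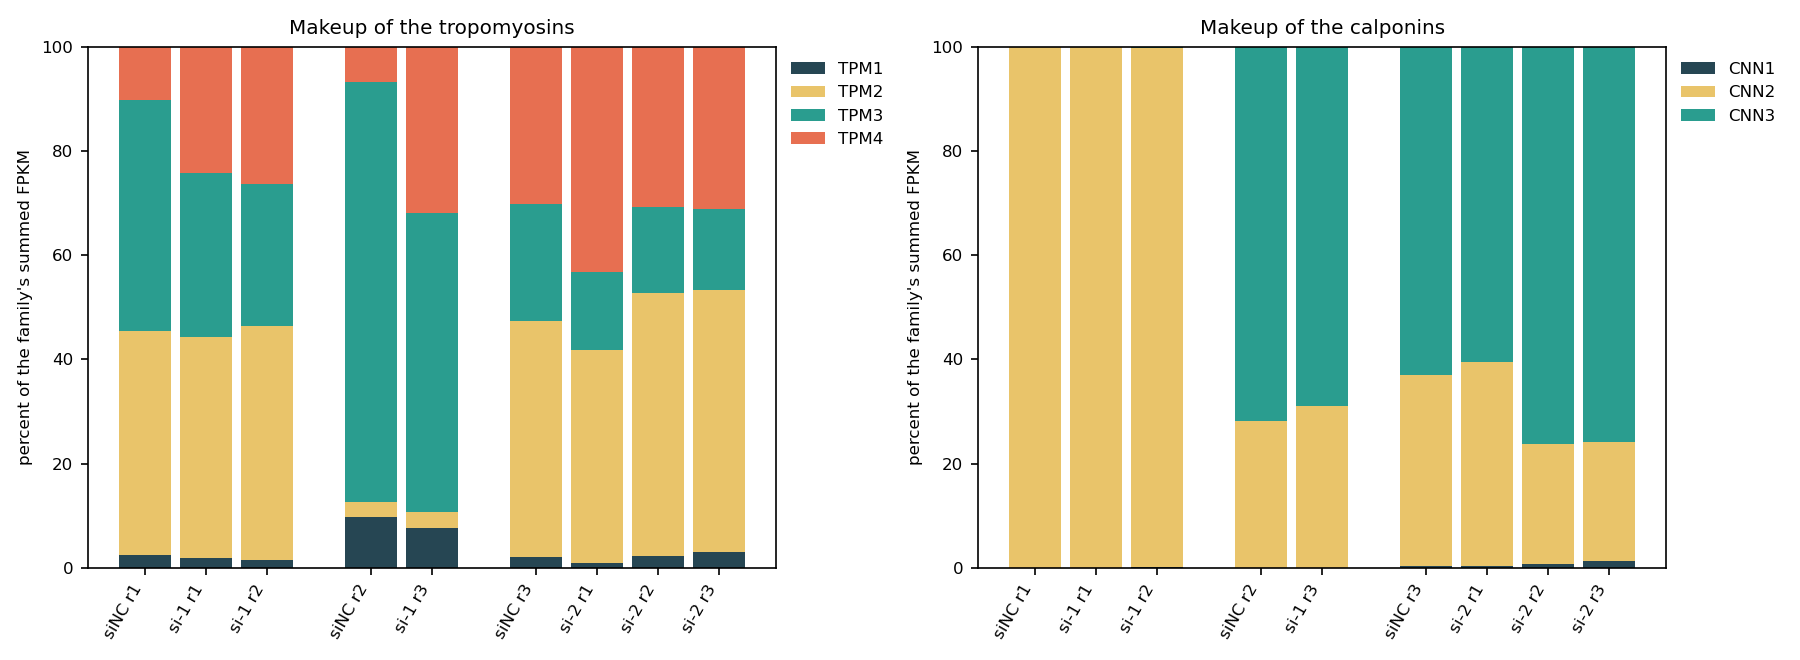
Percent of the summed FPKM of the 4 tropomyosins (left) and the 3 calponins (right) that each gene makes up, in 9 libraries ordered by set with gaps between sets 1, 2 and 3. TPM3 fills 80.6% of the tropomyosin bar in siNC replicate 2, and CNN2 fills nearly the whole calponin bar in the 3 libraries of set 1.

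CALD1, TAGLN and ACTA2 were all highest in the VIM-high set but differed in how low they were elsewhere. CALD1 had 17.0, 16.7 and 16.2 FPKM in the VIM-intermediate set, 4.69 and 5.53 in the EPCAM-high set and 20.2, 16.0, 35.3 and 42.1 in the VIM-high set. The lowest VIM-high library, siWFDC21P-2 replicate 1, lay below the 3 VIM-intermediate libraries, and the EPCAM-high libraries lay below all others. TAGLN, a target gene of serum response factor in smooth muscle, had 0.759, 0.397 and 0.663 FPKM in the VIM-intermediate set, 1.06 and 0.808 in the EPCAM-high set and 22.8, 27.1, 39.5 and 84.2 in the VIM-high set. ACTA2 had 0.689, 0.767 and 1.62 FPKM in the VIM-intermediate set and 56.1, 91.7, 111 and 167 in the VIM-high set. In the EPCAM-high set ACTA2 had 2 reads (0.0238 FPKM) in siNC replicate 2 and none in the library labelled siWFDC21P-1 replicate 3, which allows up to 0.0359 FPKM.

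High ACTA2 and TAGLN in the VIM-high set stood beside low levels of the genes that define smooth muscle. MYH11, the smooth muscle myosin heavy chain, was at 0.0457 to 0.123 FPKM there, LMOD1, a leiomodin of smooth muscle, at 0.0301 to 0.0869, DES, the muscle intermediate filament desmin, at 0.0233 to 0.0970 and MYOCD, the coactivator myocardin, at 0.00691 to 0.0713. Of the smooth muscle and pericyte list, 4 of 8 genes in the tables passed 1 FPKM in every VIM-high library (RGS5, CSPG4, NOTCH3 and MCAM), and the summed level was 33.0 to 82.6 FPKM, against 63.0 to 91.4 in the VIM-intermediate and 140 to 218 in the EPCAM-high set.

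After knockdown, TPM4 was above the siNC library of its set in 6 of 6 libraries. Its FPKM was 2.97 times (95% interval 2.84 to 3.11) that of siNC replicate 1 in siWFDC21P-1 replicate 1 and 3.85 times (3.69 to 4.02) in replicate 2. In the EPCAM-high set the ratio was 5.68 (5.33 to 6.06), between 5.38 FPKM and 30.6 FPKM. In the VIM-high set the ratios were 2.29 (2.24 to 2.35), 1.72 (1.68 to 1.77) and 2.06 (2.01 to 2.11) in siWFDC21P-2 replicates 1 to 3. These intervals cover the counting error of reads only. The ratio was largest where the control was lowest, and the knockdown libraries of the VIM-intermediate and EPCAM-high sets (30.6 to 47.0 FPKM) stayed below the VIM-high control (75.9 FPKM). On the log2(FPKM + 1) scale the fitted change of siWFDC21P-1 was 1.95 ± 0.23 and that of siWFDC21P-2 was 1.00 ± 0.28 (SE, n = 3 libraries each).

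Ranked from the highest difference among the 13014 genes whose mean reached 1 FPKM, TPM4 stood 82nd, 22nd and 6th in siWFDC21P-1 replicates 1 to 3 and 46th, 1240th and 576th in siWFDC21P-2 replicates 1 to 3. Its smallest difference over the 6 libraries, 0.78 on the log2 scale, was the 8th highest such minimum. The 7 genes above it were BICD2, FAM210B, GANAB, H2AC6, PEG10, TCF3 and TOMM22. Since 3 of the 6 libraries share 1 control and a further pair shares another, these minima rest on 3 control libraries. TPM4 was chosen for these same differences, so its high ranks follow from the choice and are no support for it.

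TPM2, the other tropomyosin above its control in all 6 libraries, differed by less. It was 1.23 and 1.55 times its control in the VIM-intermediate set, 1.22 times in the EPCAM-high set and 1.44, 1.88 and 2.21 times in the VIM-high set. Its fitted changes were 0.35 ± 0.23 and 0.86 ± 0.28 (log2, SE) for siWFDC21P-1 and siWFDC21P-2. TPM3 lay below its control in all 3 siWFDC21P-1 libraries (0.883, 0.908 and 0.850 times) and above it in all 3 siWFDC21P-2 libraries (1.07, 1.24 and 1.37 times). TPM1 likewise was 0.934, 0.911 and 0.930 times its control under siWFDC21P-1. Under siWFDC21P-2 its replicates disagreed, at 0.726, 1.81 and 2.87 times the control.

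**Figure D3:**
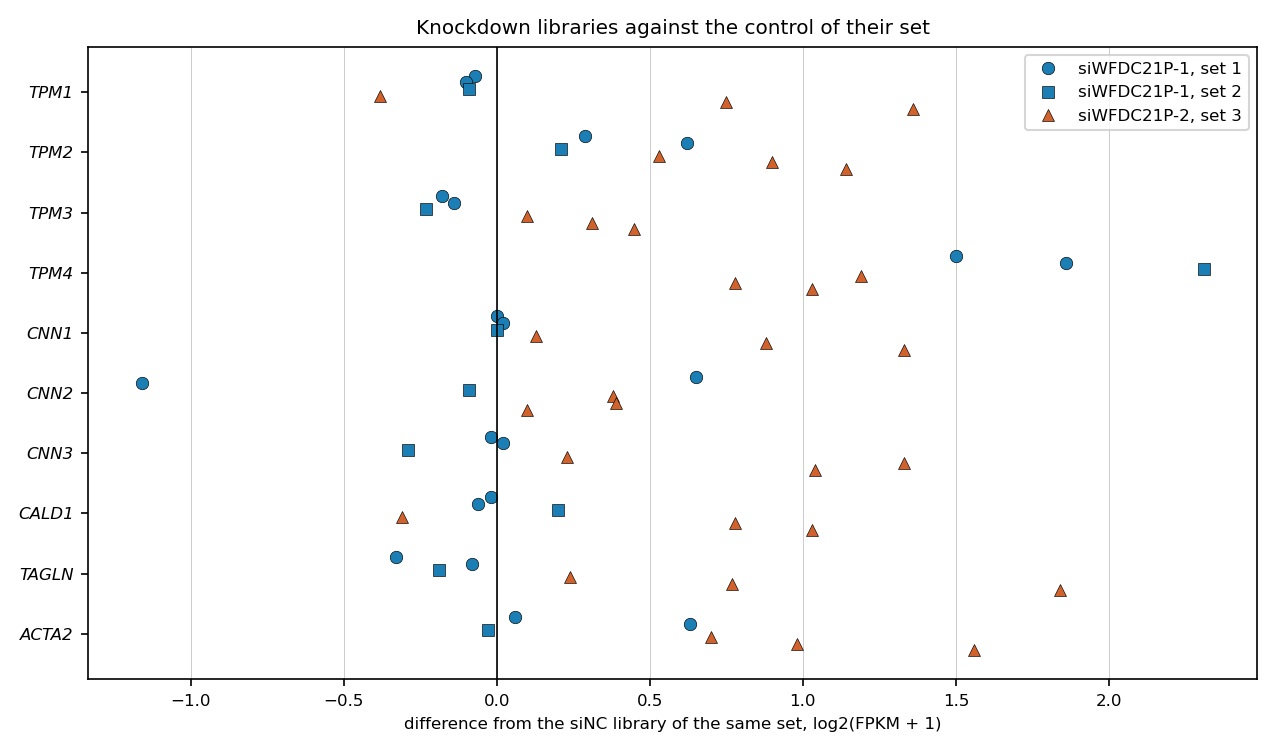
Difference of each knockdown library from the siNC library of its set, log2(FPKM + 1), for the 10 genes; colours give the siRNA and symbols the set. The 6 TPM4 points lie between 0.78 and 2.31, the siWFDC21P-1 points of TPM1 lie between -0.10 and -0.07, and CNN2 has siWFDC21P-1 points on both sides, at -1.16 and 0.65.

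Under siWFDC21P-2 most of the other genes lay above the VIM-high control, by an amount that differed between the libraries. ACTA2 was 1.63, 1.98 and 2.98 times the control in siWFDC21P-2 replicates 1 to 3, and TAGLN was 1.19, 1.73 and 3.70 times. CNN3 was 1.18, 2.54 and 2.08 times, and CNN1 was 1.44 (0.682 to 3.15), 4.87 (2.66 to 9.63) and 8.03 (4.50 to 15.6) times. CALD1 was 0.796 times the control in replicate 1 and 1.75 and 2.09 times in replicates 2 and 3. CNN2 was 1.31, 1.32 and 1.08 times.

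The difference between the libraries was not confined to these genes. In siWFDC21P-2 replicate 1, 161 of 13014 genes differed from the control by more than 1 log2 unit, against 1229 and 1105 in replicates 2 and 3, and its r with siNC replicate 3 was 0.985. Fibroblast markers were also highest in replicates 2 and 3. The summed level of the 8 fibroblast genes was 111 FPKM in siNC replicate 3 and 159, 640 and 582 FPKM in siWFDC21P-2 replicates 1 to 3. Of the 8, COL1A2, COL3A1, THY1 and COL1A1 were high in at least 1 of these libraries, with COL3A1 from 5.75 to 242 FPKM, while DCN and PDGFRB stayed at most at 0.0181 and 0.0921 FPKM. The summed smooth muscle and pericyte list was 33.0 FPKM in the control and 40.5, 82.6 and 70.8 FPKM in the knockdown libraries. Their part in the ACTA2, TAGLN, CNN1 and CNN3 values was not tested.

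Under siWFDC21P-1 these genes showed no common direction. ACTA2 was 1.11 and 2.35 times its control in the VIM-intermediate set. TAGLN was 0.523, 0.872 and 0.759 times its control, from 0.397 to 0.808 FPKM. CALD1 was 0.985, 0.955 and 1.18 times, and CNN3 in the EPCAM-high set 0.818 times. CNN2 differed most between the replicates, at 1.59 and 0.433 times the same control in siWFDC21P-1 replicates 1 and 2.

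The mean level of 9 of the 10 genes reached 1 FPKM, and CNN1 did not and was left out of the fits. The same values chose the genes, so the following counts are given only beside those of all genes. Under siWFDC21P-1, TPM2 and TPM4 lay above the control of the set in all 3 libraries (27.9% of the 13014 genes did) and TPM1, TPM3 and TAGLN below it (20.7% of all genes). Under siWFDC21P-2, 7 of 9 lay above it in all 3 libraries (26.9% of all genes), TPM1 and CALD1 being the others, and 0 below it (26.0%). Over all 6 libraries TPM2 and TPM4 lay above (10.8%) and 0 below (7.92%). TPM3 and TAGLN were lower in all 3 siWFDC21P-1 and higher in all 3 siWFDC21P-2 libraries, as were 3.77% of all genes. The median fitted change of the 9 genes was -0.09 against 0.03 over all genes for siWFDC21P-1, and 0.86 against 0.02 for siWFDC21P-2.

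Across the whole table the fits called few genes. With limma and the sets as a term, 3 genes passed an adjusted p of 0.05 for siWFDC21P-1 (0.0231%), 0 for siWFDC21P-2 (0.0%), 1 for both siRNAs pooled (0.00768%) and 0 for the difference between the siRNAs (0.0%). At an unadjusted p under 0.05 the counts were 1790, 682, 1871 and 703 of 13014. Without siWFDC21P-2 replicate 1 the calls were 153, 902, 204 and 182. None of the 9 genes was among those called in the main fits, and up to 3 were under the alternatives. One of these, limma-voom, kept all libraries and called TPM4 for siWFDC21P-1. Nothing is read from either count, since the same values chose the genes.

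**Figure D4:**
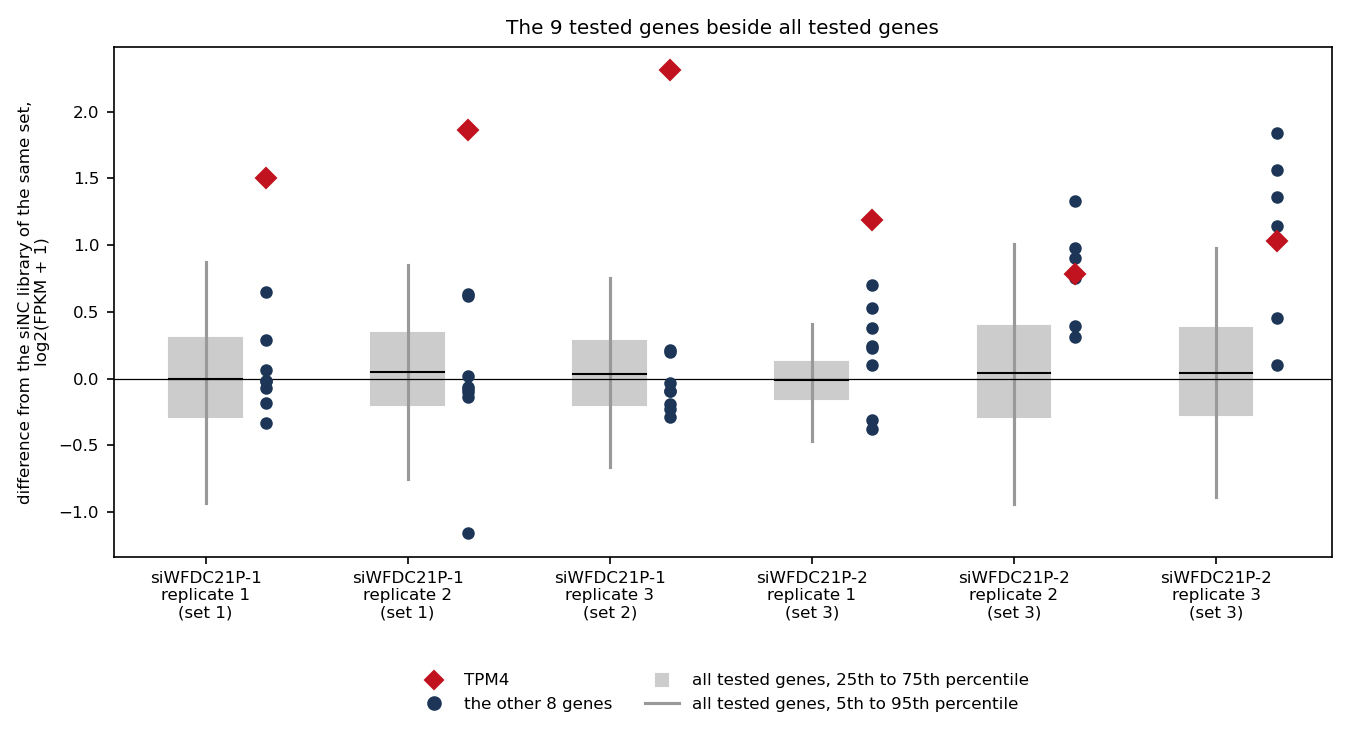
Differences from the control of the set, log2(FPKM + 1), in the 6 knockdown libraries: boxes and lines give the 25th to 75th and the 5th to 95th percentile of all 13014 tested genes, the black bar their median, and points the 9 tested genes. TPM4 (diamonds) lies above the 95th percentile in 5 of 6 libraries, the exception being siWFDC21P-2 replicate 2, where that percentile is 1.01.

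Other genes of the contractile apparatus were taken from 5 lists of 54 genes, of which 52 were in all tables and 41 were tested. None of the 41 passed the threshold in any of the 4 limma comparisons or by limma-voom, and in the pooled comparison 2 were higher and 3 lower at an unadjusted p under 0.05. When siWFDC21P-2 replicate 1 was left out, ACTB, MYL6, MYL9 and NEXN passed the threshold for siWFDC21P-2 and MYL6 for the difference between the siRNAs. The median pooled change of the 41 was -0.01, against 0.03 over all genes. Of the 14 tested myosin II and regulator genes, MYH9, PPP1R12A and PPP1CB lay above the control in all 6 libraries and MYL12A below it. MYH9, the non-muscle myosin heavy chain of stress fibres, had 65.0, 114 and 92.7 FPKM in the VIM-intermediate set, 90.7 and 127 in the EPCAM-high set and 142, 216, 207 and 243 in the VIM-high set. Its pooled change was 0.60 ± 0.13 (log2, SE; limma adjusted p = 0.16). PPP1CB, the catalytic subunit of myosin phosphatase, changed by 0.21 ± 0.12 (limma adjusted p = 0.438) and the light chain gene MYL12A by -0.32 ± 0.14 (limma adjusted p = 0.343).

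Among the 13 tested filament end, crosslinking and binding genes, only NEXN, an actin-binding gene of muscle, lay on 1 side in all 6 libraries, above the control. It went from 1.73 to 4.63 and 2.79 FPKM, from 0.335 to 0.906 FPKM and from 0.498 to 0.752, 2.76 and 3.17 FPKM, with a pooled change of 0.79 ± 0.29 (log2, SE; limma adjusted p = 0.28). Of the 9 LIM domain genes, PDLIM5, which links alpha-actinin to kinases, lay below the control in all 6. It went from 20.2 to 7.54 and 8.15 FPKM in the VIM-intermediate set, from 7.15 to 6.17 in the EPCAM-high set and from 62.2 to 39.1, 27.6 and 39.2 in the VIM-high set (pooled change -0.81 ± 0.20, limma adjusted p = 0.196). Of the 41 related genes, 4 lay above the control in all 6 libraries (9.76%, against 10.8% of all genes) and 2 below it (4.88%, against 7.92%).

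Between the sets, MYL9 and PFN2 differed most among the related genes, with set medians that spanned 6.06 and 6.03 on the log2(FPKM + 1) scale. MYL9, the myosin light chain of smooth muscle and stress fibres, was at 4.98 to 6.30 FPKM in the VIM-intermediate set, 0.0126 to 0.0376 in the EPCAM-high set and 42.6 to 112 in the VIM-high set, which is the order of ACTA2. PFN2, a profilin, was at 0.358 to 0.663 FPKM in the VIM-intermediate set and at 83.4 to 93.8 and 90.3 to 114 in the others, which is the pattern of CNN3. The other genes spanned less, up to 3.14 for CSRP1. FLNA, a filamin that crosslinks actin, was at 179 to 185, 56.3 to 75.2 and 383 to 437 FPKM in the VIM-intermediate, EPCAM-high and VIM-high sets. SYNPO was at 9.01 to 13.9, 1.31 to 3.25 and 7.83 to 10.5 FPKM. The LIM domain genes CSRP1 and LIMA1 were highest in the VIM-intermediate set, at 33.8 to 46.7 and 36.9 to 64.4 FPKM. CSRP1 was at 10.6 to 13.2 FPKM in the EPCAM-high and 2.86 to 6.66 in the VIM-high set, and LIMA1 at 4.48 to 5.10 and 9.77 to 29.1. MYL12B was highest in the EPCAM-high set, at 271 to 326 FPKM.

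The cytoplasmic actins and the transcription factors differed less. ACTG1 was at 483 to 704, 662 to 948 and 1033 to 1203 FPKM in the VIM-intermediate, EPCAM-high and VIM-high sets. ACTB had 621 FPKM in siNC replicate 3 and 1011, 1469 and 1715 FPKM in siWFDC21P-2 replicates 1 to 3, and 1076 to 1582 FPKM in the other 5 libraries. ACTB, often used as a reference gene, was thus 1.63, 2.36 and 2.76 times the VIM-high control, beside 1.63, 1.98 and 2.98 times for ACTA2. SRF, which drives contractile genes with the coactivators MRTFA and MRTFB, was at 20.6 to 25.4 FPKM in the VIM-high set and 9.73 to 14.3 in the others. MRTFA was at 4.57 to 8.06 FPKM in the VIM-high set and 8.19 to 9.44 in the others, and MRTFB was at 1.44 to 4.57 FPKM over all 9.

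**Figure D5:**
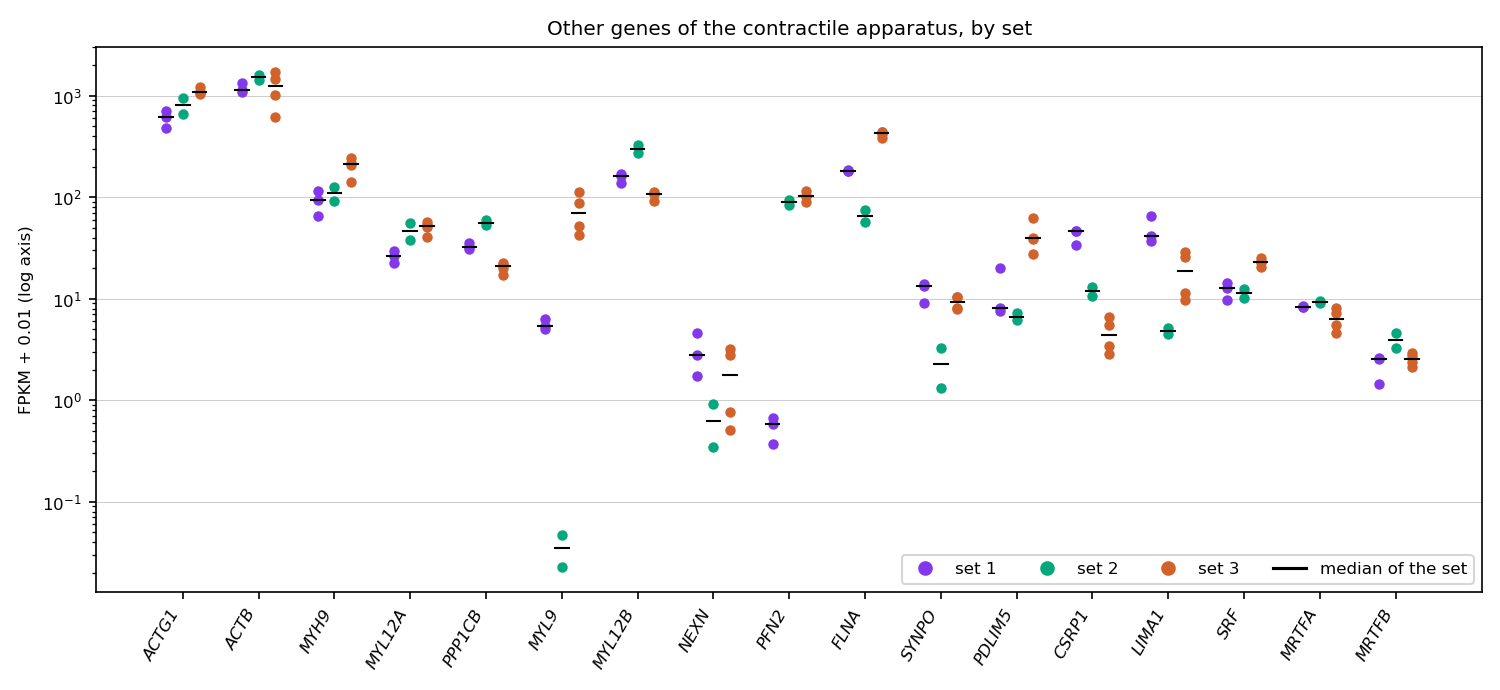
FPKM + 0.01 (log axis) of the related genes named by rule, with a point for each library, coloured by set, and a line at the median of each set. MYL9 is lowest in set 2 and PFN2 in set 1, while ACTB, MRTFA and MRTFB differ little between the sets.

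The genes most like CNN3, TAGLN and TPM4 were found by Pearson's r, given as a description since the points fall into the 3 sets. Over the 9 libraries the levels of TCEAL3 (r = 0.998), CHFR (0.996), NRN1 (0.996), NRSN2 (0.995) and PTK7 (0.994) were most like CNN3. CHFR and NRN1 were listed at 0 in all 3 VIM-intermediate libraries, against 1.88 to 3.24 and 14.2 to 39.8 FPKM in the other 6. PTK7, a pseudokinase receptor of planar cell polarity, was at 0.0187 to 0.0417 FPKM in the VIM-intermediate set and at 17.96 to 20.7 FPKM elsewhere. Most like TAGLN were TNIP3 (0.996), PRRX1 (0.995), RFLNB (0.995), GNA14 (0.995) and ALDH3A1 (0.994). PRRX1, a homeobox factor of mesenchyme, was at 6.99 to 16.8 FPKM in the VIM-high set and at most 0.0388 in the others. For TPM4, r was taken over the 6 differences from the control, and KMT5B (0.986), JMJD1C (0.984), CREB5 (0.983), ANAPC1P4 (0.983) and TESMIN (0.979) came first. Their differences ran from -0.70 to 0.90 and changed sign between libraries, so they varied together with the TPM4 differences but did not share their sign or size.

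Serum response factor binds the CArG box, and promoters of 9 of the 10 genes, all but TAGLN, were matched by symbol in RefSeq (GRCh38.p14), with 18 windows. The 250 bases before the start held an exact CArG box, searched on both strands, in 2 of the 9 genes (CNN2 and TPM4). The share was 1.60% of 27305 genes with such windows, and 12 of 48 related genes. Only exact boxes, of the form printed here, were counted. An ACTA2 window held the near matches ccctatatgg and ccttgtttgg, which were not, so a gene without a count may still hold a looser box. The letters CATTCC, on either strand, were in 3 of the 9 (ACTA2, CALD1 and CNN3) and in 16.7% of all genes. From the CNN2 window and the TPM4 window with the box, 200 bases each are printed here, with the box in capitals. No other of the 18 windows held an exact box. The first base of the box lies 89 bases before the CNN2 start and 173 bases before the TPM4 start, both taken from RefSeq. The GENCODE start of TPM4 given above (16067021) lies upstream of the printed stretch, which is therefore inside the gene in that annotation. The TPM4 window is 1 of 3 for that gene, and the box was in 1 of them. A match describes the letters only.
CNN2, chr19:1026377-1026576, + strand: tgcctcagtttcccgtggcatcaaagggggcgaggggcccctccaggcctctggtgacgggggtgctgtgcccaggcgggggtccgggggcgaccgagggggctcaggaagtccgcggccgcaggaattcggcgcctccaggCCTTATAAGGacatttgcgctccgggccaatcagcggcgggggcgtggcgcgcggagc
TPM4, chr19:16067307-16067506, + strand: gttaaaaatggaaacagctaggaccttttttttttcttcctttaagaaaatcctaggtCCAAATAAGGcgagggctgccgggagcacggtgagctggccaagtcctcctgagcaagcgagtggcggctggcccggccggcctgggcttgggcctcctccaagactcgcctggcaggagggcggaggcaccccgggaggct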

How the data were processed

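For each of 9 libraries, made from 1 µg of RNA, the authors deposited a table of FPKM by Ensembl gene. The submitters' processing notes list HTSeq 0.6.0, Bowtie2 2.2.3, HISAT2 2.1.0 and, as the build, hg38, without roles, and the annotation release, the strand and the trimming are not given in the sources used here. The 26636 genes of all 9 tables were joined by Ensembl identifier. Low FPKM values were whole multiples of 1 read (within 0.02 reads) once the union exon length of GENCODE release 29, or for 1040 genes a solved length (TPM1, TPM2 and TPM4 among them), was used. Whole reads were so recovered for 96.6% of genes, and they gave the library totals, the 95% exact conditional intervals of ratios and the limit of 3 reads at 0.

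The 3 sets came from average linkage on 1 minus Pearson's r, split at a height of 0.15. The 13014 genes whose mean reached 1 FPKM were tested with limma 3.58.1 under R 4.3.3. Values were log2(FPKM + 1), siRNA and set were the terms, all 9 libraries entered 1 fit with trended empirical Bayes variances, and p-values were adjusted by Benjamini-Hochberg at 0.05 over these genes. A fold on this scale understates changes of low genes. For siWFDC21P-2 the only control is siNC replicate 3, and the spread comes from all 9 libraries.

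The 10 genes and all lists were chosen with earlier results of these data known. Named by rule were all 10 genes, for each list up to 3 related genes with the smallest p among those above, or below, the control in all 6 libraries, up to 3 with the largest range of set medians, and the 5 genes most like CNN3, TAGLN and TPM4. Other values were chosen after they were seen. Alternatives were other scalings, pseudocount, filter, covariates, a replicate block, limma-voom and leaving out single libraries or sets. The marker lists not named in the results stood as follows in summed FPKM: striated muscle 21.7 to 41.1, 7.10 to 7.17 and 3.73 to 8.98 in sets 1, 2 and 3, leukocyte 0.525 to 0.938, 30.0 to 36.2 and 1.31 to 8.87, and endothelial 0.436 to 1.69, 20.1 to 26.1 and 0.176 to 4.95. The epithelial list stood at 174 to 385, 1127 to 1713 and 8.95 to 10.6, the mesenchymal list at 59.7 to 64.6, 6.98 to 12.5 and 251 to 379, and the fibroblast list at 24.9 to 27.7, 2.00 to 2.76 and 111 to 640.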

Additional observations from a re-analysis of the deposited data

Results flagged for a closer look

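For TPM3, TAGLN and MYL9, every siWFDC21P-1 library lay below the control of its set and every siWFDC21P-2 library above it. The same held for 3.77% of the 13014 tested genes. Of the 41 related genes 5 did so (MYL6, MYL9, ACTN4, PFN1 and PDLIM7), of which only MYL9 was named by rule. The change under siWFDC21P-2 minus that under siWFDC21P-1 was 0.47 for TPM3, 1.15 for TAGLN and 1.04 for MYL9, on the log2(FPKM + 1) scale. No gene of the whole table passed the test of this difference (limma), where 703 of 13014 genes had an unadjusted p under 0.05. The siRNAs were used in different sets, so the siRNA and the set cannot be told apart in these values.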

How the results depend on the processing

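The calls depended on single libraries. The counts at an adjusted p of 0.05 (3 for siWFDC21P-1, 0 for siWFDC21P-2, 1 pooled, 0 for the difference between the siRNAs) ranged, when 1 library was left out, from 0 to 153, 0 to 902, 0 to 204 and 0 to 182, and the highest values all came without siWFDC21P-2 replicate 1. Without a filter on low values they were 0, 17, 0 and 7. With the naming style of the tables in place of the set, and with no covariate, all were 0. Limma-voom gave 26 for siWFDC21P-1, and the pooled count was 0 with upper quartile scaling and 2 with a pseudocount of 0.1. Without set 1 the siWFDC21P-1 and pooled counts were 0, and without set 2 or set 3 the pooled count was 0. Without siNC replicate 3 or without set 3, siWFDC21P-2 has no control or no library, so it and the difference gave no value. With the replicate block all 4 counts were 0. Same-numbered libraries did not as a rule deviate together (r from -0.683 to 0.667 over 6 pairs with the controls), so the numbers were not taken as pairs. The highest r was that of siWFDC21P-1 replicate 1, which shares a set with siNC replicate 1. PPP1CB changed sign with no covariate (-0.04). TPM4 kept its sign in all 19 alternatives for siWFDC21P-1 (1.04 to 2.31) and all 18 for siWFDC21P-2 (0.90 to 3.04). Some of these alternatives could not move the value. With the set term the siWFDC21P-2 value rests on set 3 alone. It stayed at 1.0 when libraries of set 1 or set 2 were left out. Likewise the siWFDC21P-1 value stayed at 1.95 when single libraries of set 3 were left out. TPM2 kept its sign in 18 of 19 for siWFDC21P-1, with -0.00 when no covariate was used. Of 513 alternative values of the 9 genes, 482 moved by less than the SD between libraries. That count includes alternatives that could not move a value, so it is no measure of stability. CNN1 outside the VIM-high set and CNN3 in the VIM-intermediate set had at most 3 reads, too few for a ratio. These sets had the larger library totals, 28.1 to 29.7 M reads.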
